A study of Mus musculus with 12 samples.

Results

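The 34 genes described here mark T cells and intraepithelial lymphocytes, the lymphocytes that sit between the absorptive cells of the gut lining. They were taken from a list of gene symbols, not from their values, and the members and the further lists were compiled with earlier results of these data known. RNA of whole duodenum was measured on 12 one-colour arrays, 1 per male mouse, with 26107 features tested, and 33 of the 34 genes were among them. The exception was Cd27, a costimulatory receptor of the tumour necrosis factor receptor family, with a probe that was well above background on 0 of 12 arrays.

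The 4 groups held 3 mice each: Akp3 knockout given IIAEK (KO IIAEK), Akp3 knockout given vehicle (KO vehicle), wild type given IIAEK (WT IIAEK) and wild type given vehicle (WT vehicle). The knockout, labelled IAP-KO (Akp3-/-), lacks the gene of a duodenal alkaline phosphatase that sits on the brush border and dephosphorylates bacterial endotoxin among other substrates. IIAEK, a pentapeptide described in the labels as cholesterol-lowering, was administered daily by the oral route for 14 days, at 600 mg per kg, in sodium carboxymethylcellulose at 5 g/L. Vehicle mice received that solution alone. All mice were 7 weeks old at the start of dosing and had fasted for 8 h at collection. The strain and the method of gene disruption are not given in the labels. The design asks whether the peptide alters duodenal expression, whether the loss of Akp3 does, and whether the response to the peptide differs without Akp3.

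T cells recognise antigen through a receptor whose CD3 chains pass the signal to the kinases LCK and ZAP70. In the small intestine most intraepithelial lymphocytes carry CD8. They reach the lining through the chemokine receptor CCR9, whose ligand CCL25 is made by the epithelium, and stay there by binding E-cadherin through the integrin chain CD103 (Itgae). They store granzymes and perforin and carry receptors shared with natural killer cells, so several of these genes are also expressed by natural killer and innate lymphoid cells.

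All levels are log2 processed intensities minus the array's 75th percentile, so that 0 stands for that percentile; levels of different genes come from different probes and are not set against each other. Differences are log2, KO minus WT or IIAEK minus vehicle, with the standard error (SE) of limma's fit over the 12 arrays. A gene was called at an adjusted p under 0.05 over all 26107 features. Akp3 itself separated the genotypes. Its level was -4.64, -4.42 and -4.90 in KO IIAEK, -4.01, -3.80 and -4.23 in KO vehicle, 1.29, 1.05 and 2.72 in WT IIAEK and 2.27, 2.04 and 1.70 in WT vehicle mice. The KO minus WT difference was -6.34 ± 0.37 under IIAEK (adjusted p 2.72e-05) and -6.01 ± 0.37 under vehicle (adjusted p 4.82e-05). The 10 absorptive enterocyte genes averaged between 7.14 and 7.85 on every array. The main probe of 31 T cell genes was well above background on all 12 arrays, that of Trat1 on 11 and that of Cd160 on 5. Cd160 met the detection filter in 1 group alone, KO vehicle, so a higher value there was a condition of its entry. The main KO minus WT counts and medians under vehicle and for the average over treatments are also given without Cd160.

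Arrays differed in other tissue they held, and these values are given before the results because some move with them. B cell genes (8 of 10 tested; Fcer2a and Blk were not well above background in all mice of any group) averaged 0.78 and 0.20 on WT vehicle replicates 1 and 2. On the other 10 arrays the same mean lay between -2.43 and -1.45. Their summed linear level spanned 3.69 to 4.82 in KO IIAEK, 3.97 to 4.89 in KO vehicle, 3.27 to 5.41 in WT IIAEK and 3.51 to 32.6 in WT vehicle mice. Smooth muscle genes (6 of 6 tested) averaged 2.68, 3.1 and 4.49 in KO IIAEK, 3.12, 3.35 and 3.54 in KO vehicle, 3.49, 3.14 and 3.84 in WT IIAEK and 3.50, 3.61 and 3.69 in WT vehicle mice. Their summed level spanned 74.5 to 256.3 in KO IIAEK, 107.8 to 134.9 in KO vehicle, 104.5 to 187.6 in WT IIAEK and 138.1 to 157.8 in WT vehicle mice. Pancreatic genes (15 of 15 tested) averaged 2.35 on WT vehicle replicate 1 and between 6.94 and 9.01 elsewhere. Stomach and Brunner's gland mucous genes (6 of 7 tested) averaged 5.43 to 6.98 on 6 arrays, those of WT vehicle, WT IIAEK replicate 3, KO vehicle replicate 1 and KO IIAEK replicate 3, and -1.67 to 0.11 on the other 6.

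Most of the 33 T cell genes had a higher mean in knockout than in wild-type duodenum under both treatments, and no single gene passed the test. The arrays lay on 2 slides, described below. KO minus WT was lower on slide 2 than on slide 1 for 31 of 33 genes, against 55.9% of all features. Within slide 2 the median for the average over treatments was negative. Most genes of a further T cell list, given below, were higher under IIAEK but not under vehicle (median -0.02). The mean level of the 33 genes was 1.04, 0.72 and 0.22 in KO IIAEK, 0.77, 0.92 and 0.50 in KO vehicle, 0.32, 0.42 and 0.43 in WT IIAEK and 0.29, 0.46 and 0.59 in WT vehicle mice. The group means were 0.66 ± 0.41 in KO IIAEK, 0.73 ± 0.21 in KO vehicle, 0.39 ± 0.06 in WT IIAEK and 0.45 ± 0.15 in WT vehicle mice (SD, n = 3 each). The 4 highest arrays were all from knockout mice, but KO IIAEK replicate 3 was the lowest of all 12 and KO vehicle replicate 3 lay within the wild-type range. In RNA of whole tissue, fewer cells of a type and less RNA per cell cannot be told apart.

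**Figure D1:**
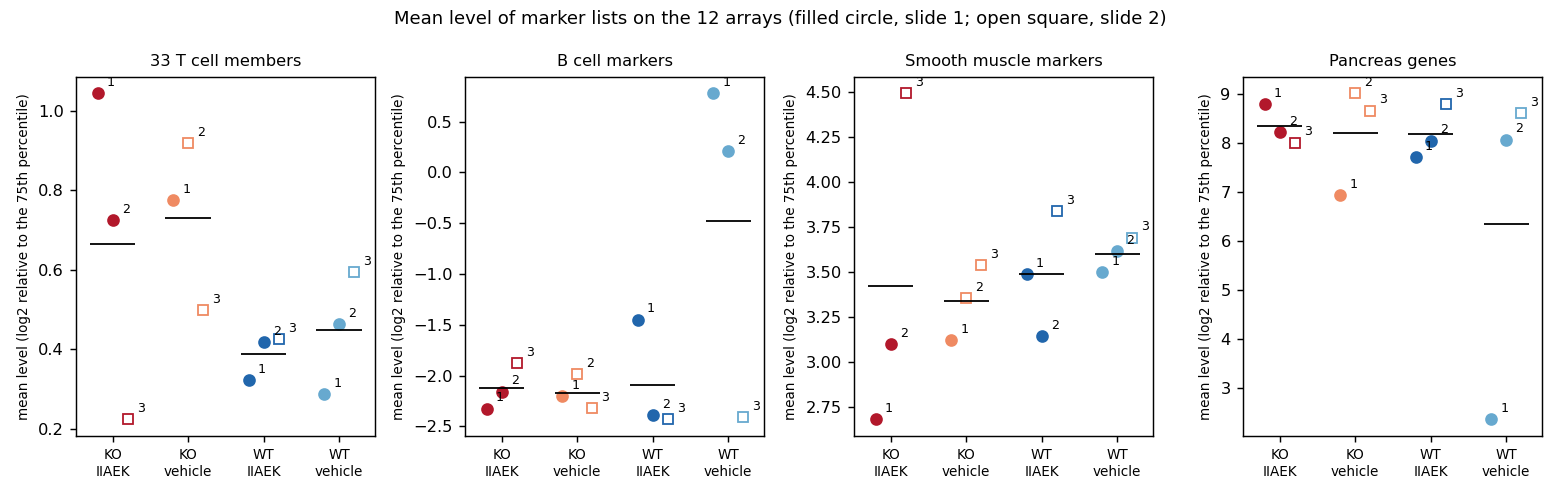
Mean level (log2 relative to the array's 75th percentile) of 4 gene lists on each array, by group: the 33 T cell genes, B cell genes, smooth muscle genes and pancreatic genes. Filled circles are arrays of slide 1 and open squares arrays of slide 2. The T cell mean runs between 0.22 and 1.04, B cell genes stand out on 2 WT vehicle arrays, and smooth muscle genes are highest on KO IIAEK replicate 3, where the T cell mean is lowest.

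Under vehicle, 30 of the 33 T cell genes had a KO minus WT difference above 0, against 54.6% of all features, and the median was 0.34, against 0.03 over all features. Without Cd160 it was 29 of 32, with a median of 0.32. None was called (limma; 0% of all features were called higher and 0.00766% lower, adjusted p of every T cell gene at least 0.993). At an unadjusted p under 0.05, 2 T cell genes were higher in knockout mice, Cd6 and Itgae, against 2.15% of all features, and none was lower, against 1.71%. Under IIAEK, 28 of 33 lay above 0, against 47.5% of all features, with a median of 0.27, against -0.01. Again none was called (0% higher and 0.00766% lower among all features), while Cd5, Cd6 and Cd8b1 passed an unadjusted p under 0.05, against 0.414% of all features, and none was lower, against 0.9%. Averaged over both treatments, 30 of 33 lay above 0, against 52.3%, with a median of 0.24, against 0.01. None was called there (0% higher, 0.0192% lower). At an unadjusted p under 0.05, 8 (24.2% of those tested) were higher, against 1.37% of all features, and none was lower, against 1.67%. Without Cd160, 29 of 32 lay above 0 for the average, with a median of 0.24, and 7 passed that unadjusted p.

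Whether all 3 knockout mice lay above all 3 wild-type mice gives a view of the same values free of the model. Under vehicle this held for Ccr9, Cd3d, Cxcr6, Gzma and Klrk1, 5 of the 32 genes other than Cd160 (15.6%), against 8.5% of all features. It also held for Cd160, which had entered through KO vehicle. Under IIAEK it held for 6 of 33 genes (18.2%), Cd2, Cd28, Cd5, Cd6, Cxcr3 and Lat, against 1.65% of all features. No gene was in both sets, and no T cell gene lay lower in all 3 knockout mice under either treatment, against 5.87% of all features under vehicle and 2.19% under IIAEK.

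These medians moved with single mice. Counts above 0 in fits without an array, within a slide or with a covariate or block are given, here and below, without the share of all features. They cannot be set against the shares from the main fit. Under IIAEK the median was 0.48 without KO IIAEK replicate 3, with 33 of 33 genes above 0, and 0.14 without KO IIAEK replicate 1, with 21 of 33. Under vehicle it was 0.45 without KO vehicle replicate 3, 0.21 without KO vehicle replicate 2 and 0.17 without WT vehicle replicate 1. The median of the average was 0.40 without KO IIAEK replicate 3. The number of genes past an unadjusted p under 0.05 moved too, as did the share of all features that did so in the same fit. Under IIAEK it was 12 without KO IIAEK replicate 3, where 2.33% of all features passed. Under vehicle it was 11 without WT vehicle replicate 3 (4.58% of all features) and 0 without WT vehicle replicate 1 (2.44%) or KO vehicle replicate 2 (1.98%). For the average it was 17 without KO IIAEK replicate 3 (6.18%) and 4 without WT vehicle replicate 1 (2.06%). KO IIAEK replicate 3 held the highest smooth muscle mean and KO IIAEK replicate 1 the lowest. With the smooth muscle mean as a covariate, chosen after seeing the data, the medians were 0.26 under IIAEK and 0.21 under vehicle. With the B cell mean as a covariate, also chosen after seeing the data, they were 0.26 under IIAEK and 0.11 under vehicle, and without the pair of WT vehicle arrays high in B cell genes the vehicle median was 0.11, with 22 of 33 genes above 0. With the stomach and pancreas means as covariates, the median was 0.26 under IIAEK (28 of 33 above 0), 0.13 under vehicle (24 of 33) and 0.19 for the average (25 of 33). In that fit 5 genes passed an unadjusted p under 0.05 under IIAEK (2.49% of all features), 0 under vehicle (3.49%) and 4 for the average (4.52%).

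**Figure D2:**
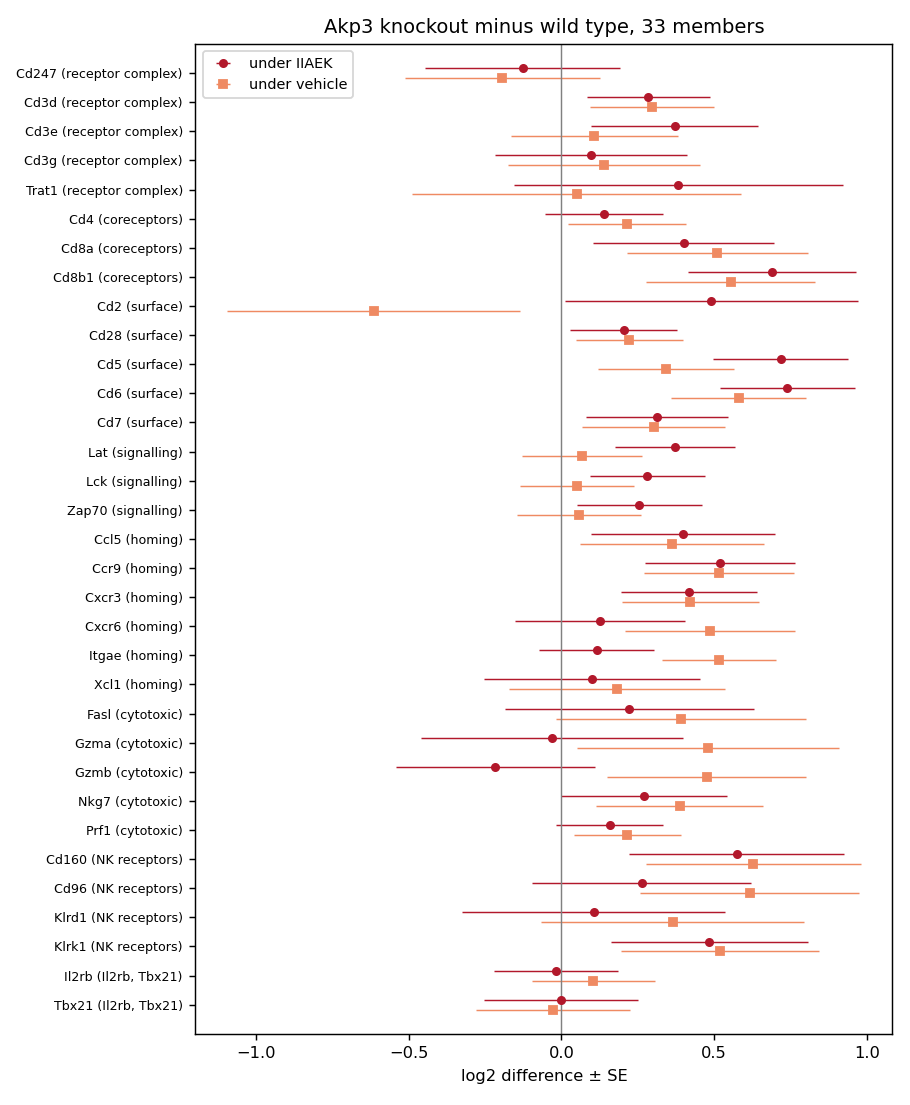
Log2 difference, knockout minus wild type, with its SE for each of the 33 tested T cell genes, grouped by role, under IIAEK and under vehicle. Most points lie right of 0 under both treatments (28 and 30 of 33), no gene passed the adjusted test, and Cd2 lies on opposite sides under the 2 treatments.

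The receptor complex genes overlapped between genotypes in all cases but Cd3d under vehicle. Cd3d, Cd3e and Cd3g encode CD3 chains of the receptor, Cd247 its zeta chain, and Trat1 an adaptor bound to it. Of these 5 genes, 4 lay above 0 under IIAEK (median 0.28) and 4 under vehicle (median 0.11). Cd3d was at 2.29, 1.92 and 1.46 in KO IIAEK, 1.96, 2.30 and 1.96 in KO vehicle, 1.43, 1.60 and 1.79 in WT IIAEK and 1.83, 1.87 and 1.63 in WT vehicle mice. Its KO vehicle values all lay above those of WT vehicle, while the IIAEK groups overlapped. The KO minus WT difference of Cd3d was 0.28 ± 0.20 under IIAEK and 0.30 ± 0.20 under vehicle.

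Cd3e was at 2.16, 2.09 and 2.36 in KO IIAEK, 2.05, 2.46 and 1.87 in KO vehicle, 1.71, 1.47 and 2.32 in WT IIAEK and 1.52, 2.05 and 2.50 in WT vehicle mice. Genotypes overlapped under both treatments, and the differences were 0.37 ± 0.27 under IIAEK and 0.11 ± 0.27 under vehicle. Cd3g was at 2.14, 1.75 and 0.68 in KO IIAEK, 1.82, 1.62 and 1.17 in KO vehicle, 1.45, 1.64 and 1.19 in WT IIAEK and 1.30, 1.51 and 1.38 in WT vehicle mice. Knockout mice given IIAEK held both the highest and the lowest Cd3g value of all 12. Cd247 behaved likewise, at 2.51, 1.61 and 0.92 in KO IIAEK, 1.32, 1.65 and 1.87 in KO vehicle, 1.63, 1.98 and 1.80 in WT IIAEK and 1.69, 1.97 and 1.77 in WT vehicle mice. Its differences of -0.13 ± 0.32 under IIAEK and -0.19 ± 0.32 under vehicle lay below 0, unlike those of the other 4 genes of this complex. Trat1 had the widest range over the 12 arrays among all 33 genes, 2.71, with differences of 0.38 ± 0.54 under IIAEK and 0.05 ± 0.54 under vehicle.

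The coreceptors lay above 0 under both treatments, 3 of 3, with medians of 0.40 under IIAEK and 0.51 under vehicle. Cd8a encodes the CD8 alpha chain, found both in CD8 alpha-alpha and alpha-beta dimers, and Cd8b1 the beta chain, which marks alpha-beta dimers. Cd8a was at 0.03, -0.14 and -0.50 in KO IIAEK, 0.09, 0.32 and -0.64 in KO vehicle, -0.61, -0.79 and -0.41 in WT IIAEK and -1.12, -0.56 and -0.08 in WT vehicle mice. The genotypes overlapped under both treatments, with differences of 0.40 ± 0.30 under IIAEK and 0.51 ± 0.30 under vehicle. Cd8b1 was at 0.50, 0.12 and -0.36 in KO IIAEK, 0.60, -0.01 and 0.18 in KO vehicle, -0.67, -0.91 and -0.23 in WT IIAEK and -0.54, -0.49 and 0.13 in WT vehicle mice. Here too the genotypes overlapped under both treatments. The difference of Cd8b1 was 0.69 ± 0.28 under IIAEK (unadjusted p 0.0295), 0.55 ± 0.28 under vehicle and 0.62 ± 0.20 averaged over treatments (unadjusted p 0.00856).

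Cd4, the coreceptor of helper T cells, was at 5.01, 5.07 and 5.22 in KO IIAEK, 4.89, 5.02 and 5.13 in KO vehicle, 4.87, 4.65 and 5.37 in WT IIAEK and 4.61, 4.71 and 5.08 in WT vehicle mice. Its values spanned less than those of Cd8a and Cd8b1 and overlapped between genotypes, with differences of 0.14 ± 0.19 under IIAEK and 0.21 ± 0.19 under vehicle. Cd4 also followed the other members weakly (r = 0.10 with the mean of the other 32 genes over 12 arrays that share scaling and tissue makeup), and its second probe was well above background on only 3 of 12 arrays.

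Among the other surface receptors, Cd5 and Cd6 stood apart most clearly under IIAEK. Both are scavenger receptor family proteins of T cells that tune receptor signalling. Cd6 was at 0.94, 0.97 and 0.63 in KO IIAEK, 1.15, 1.15 and 0.58 in KO vehicle, 0.20, 0.04 and 0.08 in WT IIAEK and 0.19, 0.10 and 0.85 in WT vehicle mice. All KO IIAEK mice lay above all WT IIAEK mice, while 1 WT vehicle mouse lay within the KO vehicle range. The difference of Cd6 was 0.74 ± 0.22 under IIAEK (unadjusted p 0.00644), 0.58 ± 0.22 under vehicle (unadjusted p 0.0233) and 0.66 ± 0.16 averaged over treatments, where its unadjusted p of 0.00139 was the smallest of the 33 genes and its adjusted p was 0.845.

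Cd5 was at 0.18, -0.01 and -0.13 in KO IIAEK, 0.08, 0.44 and -0.15 in KO vehicle, -0.89, -0.78 and -0.43 in WT IIAEK and -0.26, -0.57 and 0.17 in WT vehicle mice. The IIAEK groups did not overlap and the vehicle groups did. Its difference was 0.72 ± 0.22 under IIAEK (unadjusted p 0.0078) and 0.34 ± 0.22 under vehicle. Cd7, an immunoglobulin family receptor of T and natural killer cells, had differences of 0.31 ± 0.23 under IIAEK and 0.30 ± 0.23 under vehicle. For the costimulatory receptor Cd28 they were 0.20 ± 0.17 under IIAEK, without overlap, and 0.22 ± 0.17 under vehicle.

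Cd2, an adhesion receptor of lymphocytes that is not confined to T cells, was the exception of the group. It was at -0.99, -1.17 and -0.98 in KO IIAEK, -1.16, -0.97 and -1.30 in KO vehicle, -1.53, -1.72 and -1.37 in WT IIAEK and 0.44, 0.00 and -2.03 in WT vehicle mice. The 2 WT vehicle arrays with high Cd2 are those with high B cell genes, and the third WT vehicle mouse had the lowest Cd2 value of all 12. The difference was 0.49 ± 0.48 under IIAEK, where the groups did not overlap, and -0.61 ± 0.48 under vehicle, where WT vehicle values lay on both sides of the knockout values. Without WT vehicle replicate 3, Cd2 was called lower in KO vehicle than in WT vehicle mice, at -1.36 (limma, adjusted p 0.0462). That fit left only the 2 arrays high in B cell genes in the WT vehicle group. The share of all features called in it is not given, so the call cannot be read as particular to Cd2.

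The signalling genes showed values above 0 under both treatments, 3 of 3, with medians of 0.28 under IIAEK and 0.06 under vehicle. Lck encodes the kinase that phosphorylates the CD3 chains, Zap70 the kinase recruited to them and Lat the adaptor that ZAP70 phosphorylates. Lck was at 2.22, 1.93 and 1.66 in KO IIAEK, 2.02, 2.25 and 1.67 in KO vehicle, 1.73, 1.46 and 1.77 in WT IIAEK and 1.91, 1.82 and 2.06 in WT vehicle mice. Genotypes overlapped, and the differences were 0.28 ± 0.19 under IIAEK and 0.05 ± 0.19 under vehicle. Lat differed by 0.37 ± 0.20 under IIAEK, with no overlap of the genotypes, and by 0.07 ± 0.20 under vehicle. For Zap70 the values were 0.25 ± 0.20 under IIAEK and 0.06 ± 0.20 under vehicle.

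Homing and retention genes lay above 0 in 6 of 6 cases under each treatment, with medians of 0.26 under IIAEK and 0.45 under vehicle. Ccr9, the gut homing receptor, was at 1.41, 0.84 and 0.35 in KO IIAEK, 0.74, 1.09 and 0.69 in KO vehicle, 0.26, 0.50 and 0.29 in WT IIAEK and 0.04, 0.37 and 0.56 in WT vehicle mice. All KO vehicle values lay above all WT vehicle values, whereas KO IIAEK replicate 3 lay within the WT IIAEK range. The difference of Ccr9 was 0.52 ± 0.25 under IIAEK and 0.52 ± 0.25 under vehicle, with an unadjusted p of 0.0126 for the average.

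Itgae, the CD103 chain, was at 1.48, 1.5 and 1.16 in KO IIAEK, 1.60, 1.85 and 1.40 in KO vehicle, 1.26, 1.17 and 1.37 in WT IIAEK and 0.75, 1.13 and 1.42 in WT vehicle mice. The ranges overlapped at their edges under vehicle, and the WT IIAEK range lay inside that of KO IIAEK. Its difference was 0.12 ± 0.19 under IIAEK and 0.52 ± 0.19 under vehicle (unadjusted p 0.0189, the smallest of the 33 genes there). Ccl5, a chemokine that effector T cells store and release, was at 5.61, 5.58 and 4.92 in KO IIAEK, 5.64, 5.66 and 5.00 in KO vehicle, 4.96, 4.77 and 5.21 in WT IIAEK and 4.57, 4.94 and 5.70 in WT vehicle mice. Its genotypes overlapped under both treatments, with differences of 0.40 ± 0.30 under IIAEK and 0.36 ± 0.30 under vehicle. The chemokine receptors Cxcr3 and Cxcr6 had differences of 0.42 ± 0.22 and 0.13 ± 0.28 under IIAEK, and of 0.42 ± 0.22 and 0.49 ± 0.28 under vehicle. For Xcl1, a chemokine that attracts cross-presenting dendritic cells, they were 0.10 ± 0.35 under IIAEK and 0.18 ± 0.35 under vehicle.

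Cytotoxic genes stood above 0 in 5 of 5 cases under vehicle (median 0.39) and in 3 of 5 under IIAEK (median 0.16). Gzma, a granule serine protease, was at 7.52, 6.96 and 5.47 in KO IIAEK, 7.02, 6.88 and 6.81 in KO vehicle, 6.45, 7.28 and 6.30 in WT IIAEK and 6.26, 6.44 and 6.57 in WT vehicle mice. All 3 KO vehicle mice lay above all 3 WT vehicle mice, and KO IIAEK mice held both the highest and the lowest value of the 12. The difference of Gzma was -0.03 ± 0.43 under IIAEK and 0.48 ± 0.43 under vehicle. Gzmb, the granzyme that activates caspases in target cells, was at 2.80, 2.36 and 1.31 in KO IIAEK, 2.66, 2.76 and 2.35 in KO vehicle, 2.23, 2.66 and 2.22 in WT IIAEK and 1.89, 1.95 and 2.50 in WT vehicle mice, again with KO IIAEK mice at both ends of the range. Its difference was -0.22 ± 0.33 under IIAEK and 0.47 ± 0.33 under vehicle. The remaining cytotoxic genes lay above 0 under both treatments. Prf1, which encodes pore-forming perforin, differed by 0.16 ± 0.17 under IIAEK and 0.21 ± 0.17 under vehicle. For the granule membrane protein gene Nkg7 the values were 0.27 ± 0.27 under IIAEK and 0.39 ± 0.27 under vehicle, and for the death ligand Fasl 0.22 ± 0.41 under IIAEK and 0.39 ± 0.41 under vehicle.

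The receptors shared with natural killer cells other than Cd160 lay above 0 in 3 of 3 cases under each treatment, with medians of 0.26 under IIAEK and 0.52 under vehicle. Cd96, which binds the adhesion protein CD155, was at -0.17, -0.30 and -1.67 in KO IIAEK, -0.16, 0.10 and -0.74 in KO vehicle, -1.13, -0.99 and -0.81 in WT IIAEK and -1.18, -0.81 and -0.67 in WT vehicle mice. Genotypes overlapped under both treatments, and the differences were 0.26 ± 0.36 under IIAEK and 0.62 ± 0.36 under vehicle. Cd160, a receptor of the herpesvirus entry mediator, was well above background on 3 of 3 KO vehicle arrays and on none of WT vehicle, and was at least 1.45-fold higher in KO vehicle (limma, adjusted p 0.993). It was tested only because all 3 KO vehicle arrays detected it, so this direction is no finding about Cd160. That bound sets its mean in KO vehicle against the lowest signal well above background, or its own where higher, on each WT vehicle array. Under IIAEK it was above background in 1 KO and 1 WT mouse. Klrk1 (the NKG2D receptor) had differences of 0.48 ± 0.32 under IIAEK and 0.52 ± 0.32 under vehicle, and Klrd1 (CD94) of 0.11 ± 0.43 under IIAEK and 0.36 ± 0.43 under vehicle. Of the remaining pair, Il2rb, the receptor chain shared by interleukins 2 and 15, differed by -0.02 ± 0.20 under IIAEK and 0.10 ± 0.20 under vehicle. Tbx21, which encodes the transcription factor T-bet, differed by -0.00 ± 0.25 under IIAEK and -0.03 ± 0.25 under vehicle.

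**Figure D3:**
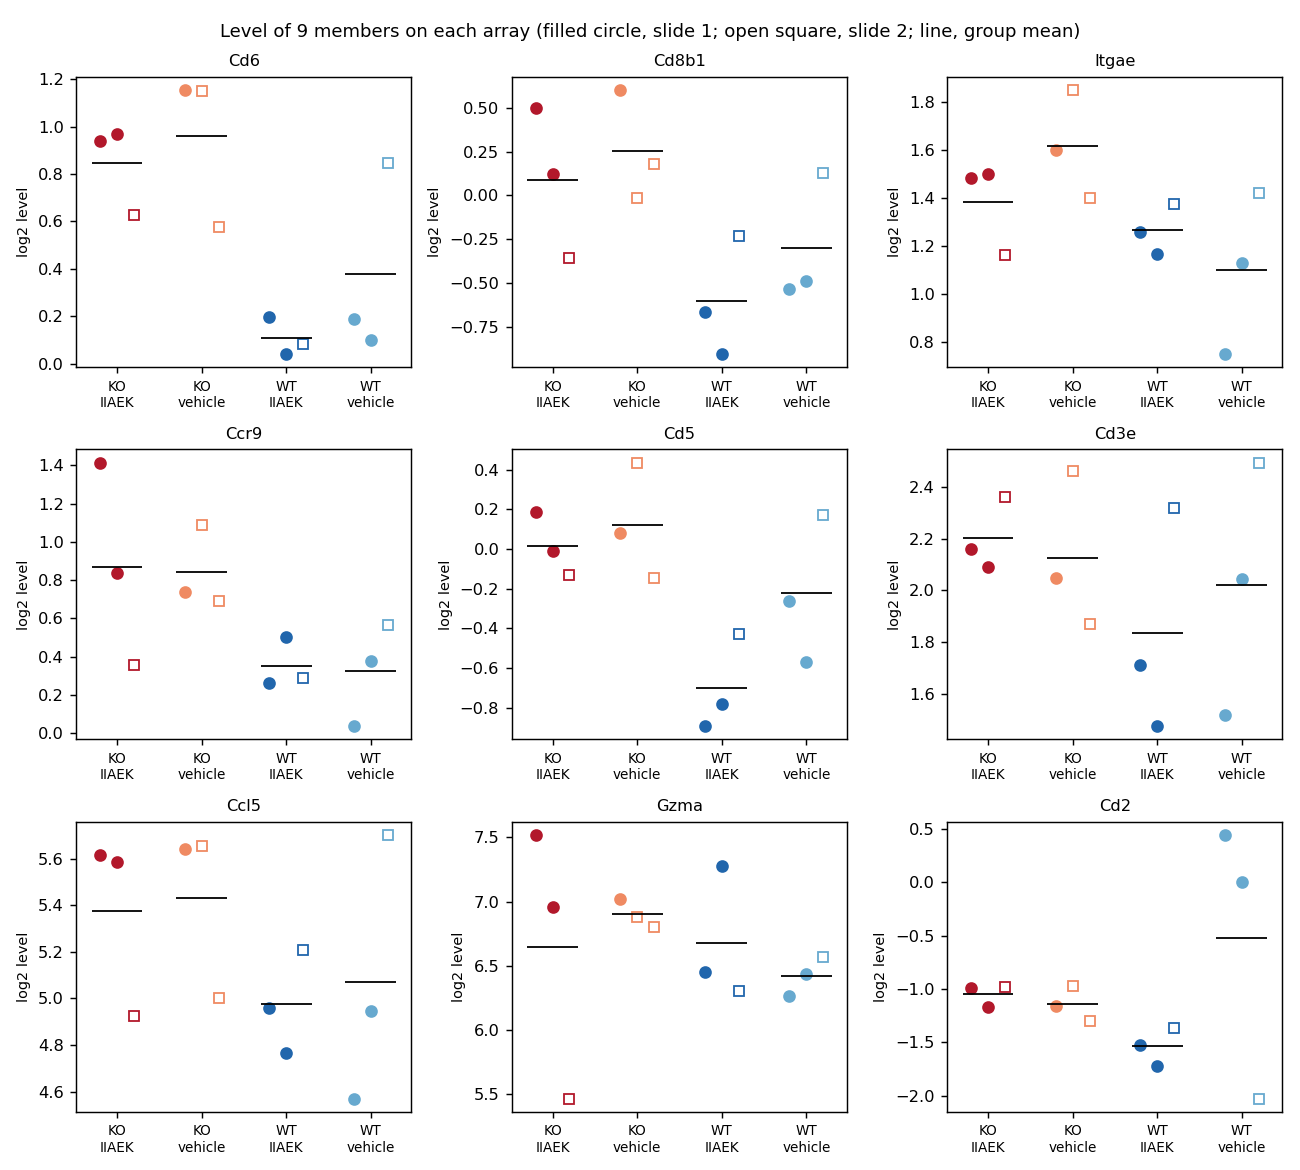
Level (log2 relative to the array's 75th percentile) of 9 T cell genes on each of the 12 arrays, by group, with the group mean as a line, filled circles for slide 1 and open squares for slide 2. Cd6 and Cd5 do not overlap between the IIAEK groups, Gzma and Ccr9 do not overlap between the vehicle groups, and Cd2 is high on 2 WT vehicle arrays.

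The arrays lay on 2 glass slides, per the file headers. Slide 2 held 5 arrays (1 KO IIAEK, 2 KO vehicle, 1 WT IIAEK and 1 WT vehicle) and slide 1 held 7 (2 KO IIAEK, 1 KO vehicle, 2 WT IIAEK and 2 WT vehicle). Averaged over treatments, the median KO minus WT difference was -0.09 within slide 2, with 12 of 33 genes above 0, and 0.44 within slide 1, with 30 of 33 above 0. Under IIAEK slide 2 gave -0.13 and slide 1 gave 0.53, and under vehicle slide 2 gave 0.05 and slide 1 gave 0.48. With slide as a block in the fit over all 12 arrays, the medians were 0.27 under IIAEK, 0.32 under vehicle and 0.30 for the average, with 32 of 33 genes above 0 for the average.

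A fit with a genotype by slide term, chosen after seeing the data, put the difference between slides (slide 2 minus slide 1) below 0 for 31 of 33 T cell genes, against 55.9% of all features, with a median of -0.54, against -0.04. At an unadjusted p under 0.05 it was negative for 8 genes (24.2%), against 0.973% of all features, and positive for 1 (3.03%), Cd28 at 0.51 ± 0.20 SE (unadjusted p 0.0315), against 1.78%. None of the T cell genes was called (limma, adjusted p at least 0.9998). Cd8b1 had the smallest p (-1.19 ± 0.21 SE, unadjusted p 0.000237): its averaged KO minus WT difference was -0.09 within slide 2 and 1.10 within slide 1. Within slide 2 the averaged difference was -0.09 for Cd8a, -0.28 for Gzma, -0.25 for Cd3g, 0.28 for Cd6, 0.13 for Cd5, 0.20 for Ccr9 and -0.00 for Itgae. Within slide 1 it was 0.79 for Cd8a, 0.52 for Gzma, 0.41 for Cd3g, 0.92 for Cd6, 0.71 for Cd5, 0.64 for Ccr9 and 0.47 for Itgae. Cd6, Cd5 and Ccr9 thus kept a value above 0 within both slides. Slide 2 holds KO IIAEK replicate 3 and slide 1 both arrays high in B cell genes; the part of slide, or of other tissue, in these differences was not tested further.

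**Figure D4:**
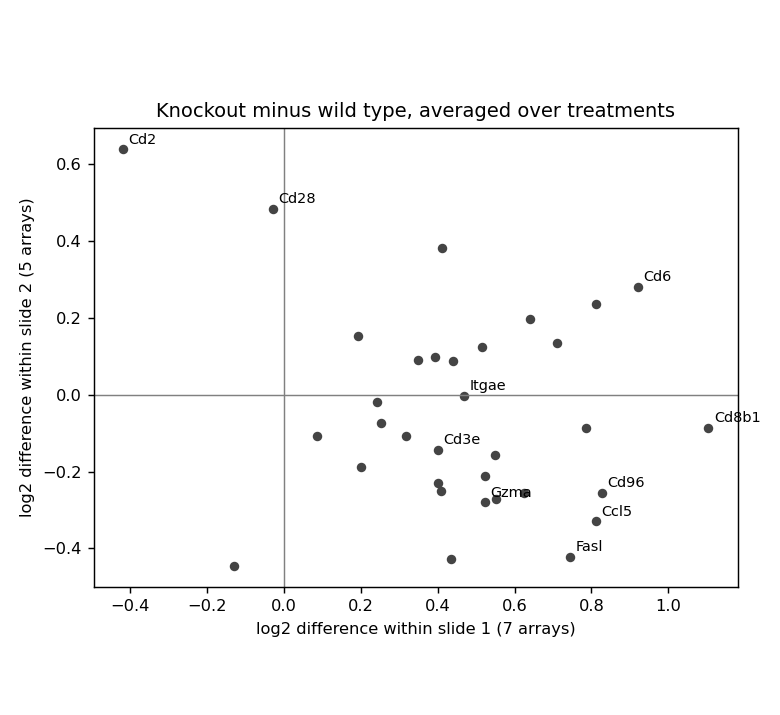
Log2 difference, knockout minus wild type averaged over treatments, of each of the 33 T cell genes within slide 2 (vertical axis, 5 arrays) and within slide 1 (horizontal axis, 7 arrays). Of the points, 30 lie right of 0 on slide 1 and 12 above 0 on slide 2.

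Between IIAEK and vehicle the T cell genes lay on both sides of 0 in both genotypes. In knockout mice, 12 of 33 lay above 0, against 49.2% of all features, with a median of -0.05, against -0.00. That median ran from -0.23 without KO IIAEK replicate 1 (6 of 33 above 0) to 0.10 without KO IIAEK replicate 3 (25 of 33). In wild-type mice, 16 of 33 lay above 0, against 56.3%, with a median of -0.00, against 0.03. With an array left out it ran from -0.13 without WT vehicle replicate 1 (10 of 33) to 0.05 without WT vehicle replicate 3 (21 of 33). With the stomach and pancreas means as covariates it was -0.23 in wild-type mice, with 4 of 33 above 0, and -0.06 in knockout mice, with 12 of 33. With the B cell mean as a covariate it was -0.23 in wild-type mice, with 6 of 33. None was called in either genotype (limma; 0% of all features in either direction), and 0 T cell genes passed an unadjusted p under 0.05 in either, against 0.816% of all features higher and 1.1% lower in knockout mice and 1.7% higher and 1.44% lower in wild-type mice. Averaged over genotypes, 14 of 33 lay above 0, against 55.2%, and 0 were called or passed an unadjusted p under 0.05 (0% of all features called; 1.2% higher and 1.74% lower at the unadjusted p).

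The smallest p values in knockout mice belonged to Gzmb, Itgae and Cd96. IIAEK minus vehicle was -0.43 ± 0.33 for Gzmb, -0.23 ± 0.19 for Itgae and -0.44 ± 0.36 for Cd96. KO IIAEK replicate 3 was lowest of its group for all 3 genes, and without it Cd96 lay at 0.03. No T cell gene separated the treatments in all 3 knockout mice against all 3, where 1.98% of all features did so above and 2.7% below. By role, the cytotoxic genes lay above 0 in 1 of 5 cases (median -0.23).

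In wild-type mice the smallest p values belonged to Cd5, Cd2 and Lck. IIAEK minus vehicle was -0.48 ± 0.22 for Cd5 (unadjusted p 0.0511), -1.01 ± 0.48 for Cd2 and -0.28 ± 0.19 for Lck. All 3 WT IIAEK mice lay below all 3 WT vehicle mice for Lck and Trat1 (6.06% of the genes tested, against 3.69% of all features) and above them for Cxcr6 (3.03%, against 5.58%). By role, 0 of 3 signalling genes and 1 of 5 surface receptors lay above 0, with medians of -0.27 for both, while 5 of 6 homing genes (median 0.10) and 4 of 5 cytotoxic genes (median 0.11) did. Cd2 again turned on the WT vehicle arrays: without WT vehicle replicate 3 it was called lower under IIAEK, at -1.76 (limma, adjusted p 0.0122), and without the pair of arrays high in B cell genes it lay at 0.49. Without that pair the median of the 33 genes was -0.26. The wild-type IIAEK comparison and the KO minus WT comparison under vehicle share the WT vehicle mice.

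The IIAEK effect in knockout minus that in wild-type mice lay above 0 for 14 of 33 genes, against 44.1% of all features, with a median of -0.02, against -0.04. The sign of this median changed between fits that left out single arrays or held tissue marker means as covariates. The part of other tissue in it was not tested. It was -0.23 without KO IIAEK replicate 1 (8 of 33 above 0) and 0.18 without KO IIAEK replicate 3 (29 of 33). With the stomach and pancreas means as covariates it was 0.17 (27 of 33), and with the B cell mean 0.23 (21 of 33). None was called in the fit over all 12 arrays, and 0 passed an unadjusted p under 0.05 (limma; 0% of all features called, 0.59% higher and 0.935% lower at the unadjusted p). The smallest p belonged to Cd2, at 1.11 ± 0.68, which at -0.39 had the opposite sign without both arrays high in B cell genes. Itgae, at -0.40 ± 0.27, and Gzmb, at -0.69 ± 0.46, followed.

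**Figure D5:**
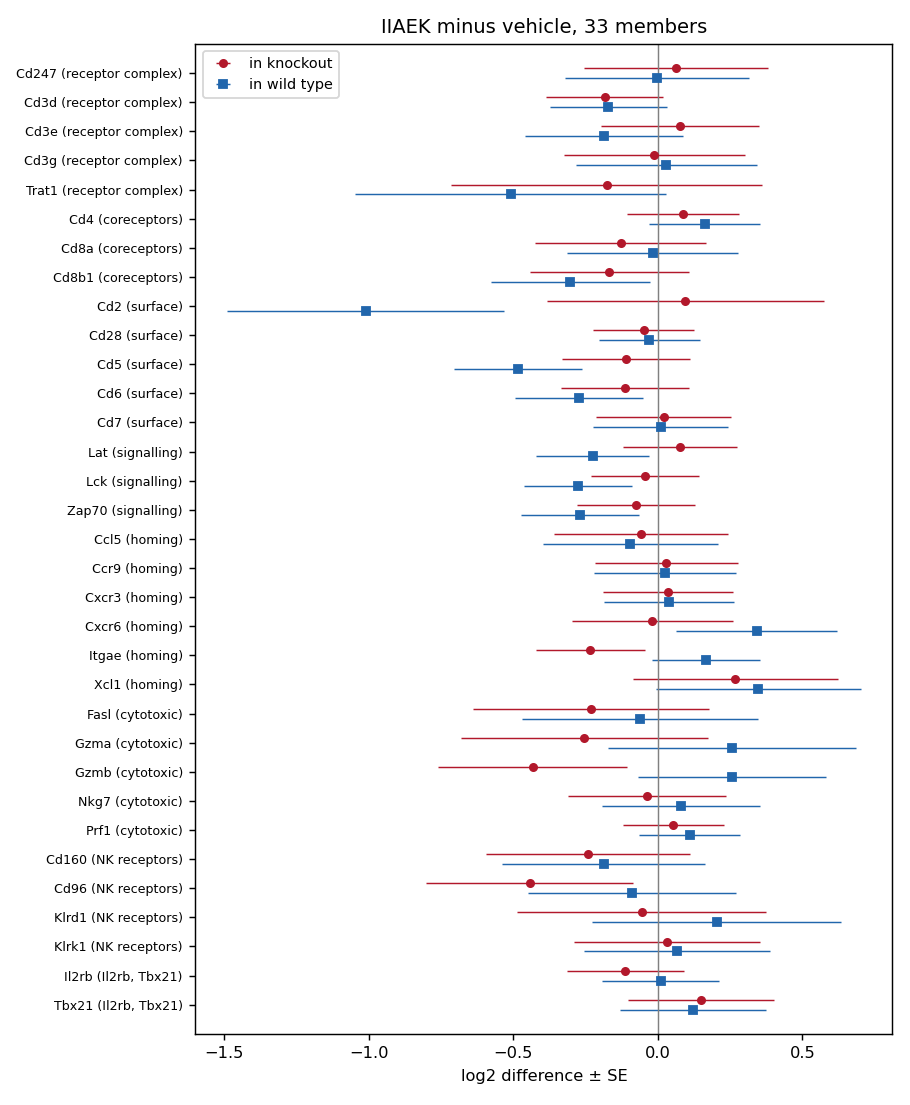
Log2 difference, IIAEK minus vehicle, with its SE for each of the 33 tested T cell genes, grouped by role, in knockout and in wild-type mice. Points lie on both sides of 0 in both genotypes (12 and 16 of 33 above 0), and Cd2 in wild-type mice lies furthest from 0.

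The T cell genes varied more from mouse to mouse than most features, with a median SD over the 12 arrays of 0.383, against 0.292 over all features. They also covaried: the median correlation between 2 members over the 12 arrays was 0.48, from -0.56 to 0.96, with points that share array, scaling and tissue makeup. No such median was taken over all features, so whether this covariation is particular to the members is not known. KO IIAEK replicate 1 held the highest value of 16 genes and KO vehicle replicate 2 that of 10. The lowest value fell on KO IIAEK replicate 3 for 10 genes and on WT vehicle replicate 1 for 9. The genes that followed the mean of the other members most closely were Fasl (r = 0.94), Ccr9 (r = 0.93) and Cd96 (r = 0.93), and those that followed it least were Cd2 (r = -0.22), Cd4 (r = 0.10) and Tbx21 (r = 0.14). The widest ranges after Trat1 were those of Cd2 (2.47), Gzma (2.05) and Klrd1 (2.05), and the narrowest those of Cd28 and Prf1 (0.73 each).

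The 250 bases before the transcription start were read for the 24 member genes with an entry in the RefSeq promoter table (GRCm38.p6, 28 starts), because the genes covaried. Searched on both strands, and counted whether or not they overlapped another motif, the letters AGGAAG, bound by ETS factors, were present in 18 of 28 windows (64.3%), against 29.5% of 32851 windows in the table. TGTGGT, bound by RUNX factors, was present in 14 (50%), against 14.0%. AGGTGT, of T-box factors, was in 8 (28.6%, against 11.8%), CTTTGA, of TCF factors, in 5 (17.9%, against 13.8%), and AGATAA, of GATA factors, in 1 (3.57%, against 9.99%). Such matches describe the letters and are not binding sites. Below are the windows of the 3 genes that followed the members' mean most closely and of Cd5, which had 2 ETS matches; they were chosen after their values were seen. Each runs 5′ to 3′ on the gene's strand, with ETS and RUNX letters in capitals.
Ccr9 (chr9:123766961-123767210, plus strand): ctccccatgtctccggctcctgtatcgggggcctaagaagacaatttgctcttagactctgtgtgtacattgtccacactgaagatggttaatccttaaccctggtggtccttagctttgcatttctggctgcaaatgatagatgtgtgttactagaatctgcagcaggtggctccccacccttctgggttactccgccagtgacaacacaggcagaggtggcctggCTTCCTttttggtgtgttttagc
Cd96 (chr16:46120249-46120498, minus strand): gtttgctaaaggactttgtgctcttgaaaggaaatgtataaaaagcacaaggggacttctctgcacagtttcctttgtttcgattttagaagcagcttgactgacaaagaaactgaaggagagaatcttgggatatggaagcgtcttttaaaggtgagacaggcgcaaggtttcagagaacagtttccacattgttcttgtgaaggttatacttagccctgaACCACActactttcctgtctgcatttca
Fasl (chr1:161788496-161788745, minus strand): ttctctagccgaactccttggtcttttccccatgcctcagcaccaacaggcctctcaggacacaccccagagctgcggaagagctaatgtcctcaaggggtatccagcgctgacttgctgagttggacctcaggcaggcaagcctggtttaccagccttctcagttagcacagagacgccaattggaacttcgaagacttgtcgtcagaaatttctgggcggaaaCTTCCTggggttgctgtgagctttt
Cd5 (chr19:10738975-10739224, minus strand): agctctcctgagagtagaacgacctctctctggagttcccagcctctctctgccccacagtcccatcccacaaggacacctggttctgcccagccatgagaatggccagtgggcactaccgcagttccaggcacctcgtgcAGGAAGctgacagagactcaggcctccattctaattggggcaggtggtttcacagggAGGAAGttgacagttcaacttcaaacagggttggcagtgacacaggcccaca
Ccr9 and Fasl hold 1 ETS match each, Cd5 holds 2, and Cd96 holds 1 RUNX match.

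Other genes of T cell receptor signalling and T cell identity, from a list of 40 of which 38 were tested, lay mostly above 0 between genotypes under IIAEK and on both sides of 0 under vehicle. KO minus WT lay above 0 for 36 of 38 under IIAEK (median 0.24), against 47.5% of all features. Under vehicle it did for 16 of 38 (median -0.02), against 54.6% of all features, and none was called under either treatment. The difference between these effects lay above 0 for 30 of 38 (median 0.26), against 44.1% of all features, with none called. Sit1, a transmembrane adaptor that dampens receptor signalling, had the smallest p for the average, with a difference of 0.47 ± 0.16 (unadjusted p 0.0119). In wild-type mice IIAEK minus vehicle lay above 0 for 2 of 38 (median -0.31), against 56.3% of all features, and none was called. Lef1, a transcription factor also expressed in B cell precursors, measured -3.58, -3.45 and -3.52 in WT IIAEK mice and -1.58, -2.35 and -3.51 in WT vehicle mice, so that it was high on the arrays high in B cell genes. The part of B cells in the values of this list was not tested.

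A list of 23 genes of gamma delta T cells, natural killer cells and innate lymphoid cells had 13 tested. KO minus WT lay above 0 for 8 of 13 under IIAEK (median 0.18), against 47.5% of all features. Under vehicle it did for 10 of 13 (median 0.33), against 54.6% of all features, and none was called under either treatment. Gzmk, a granzyme, measured -0.65, -2.19 and -3.19 in KO IIAEK, -1.89, -1.89 and -2.26 in KO vehicle, -3.33, -2.44 and -2.71 in WT IIAEK and -3.56, -3.49 and -2.51 in WT vehicle mice. Its KO vehicle values all lay above those of WT vehicle, and the IIAEK groups overlapped. The difference averaged over treatments was 0.99 ± 0.38 (unadjusted p 0.0235).

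Ligands that the epithelium and its neighbours offer to intraepithelial lymphocytes (15 of 20 tested) lay on both sides of 0 between genotypes. KO minus WT lay above 0 for 4 of 15 under IIAEK (median -0.14), against 47.5% of all features. Under vehicle it did for 11 of 15 (median 0.17), against 54.6% of all features. Ccl25, the CCR9 ligand, was at 8.14, 8.12 and 7.03 in KO IIAEK, 7.79, 7.30 and 7.81 in KO vehicle, 7.92, 8.33 and 7.46 in WT IIAEK and 7.51, 7.65 and 7.59 in WT vehicle mice. It overlapped between genotypes under both treatments (-0.14 ± 0.31 under IIAEK, 0.05 ± 0.31 under vehicle). The E-cadherin gene Cdh1 differed by -0.11 ± 0.15 under IIAEK and -0.10 ± 0.15 under vehicle. IIAEK minus vehicle in wild-type mice lay above 0 for 12 of 15 ligands (median 0.30), against 56.3% of all features.

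Cxcl9, an interferon-induced ligand of CXCR3, was at 0.56, 0.11 and -0.75 in KO IIAEK, 0.16, 0.02 and -0.10 in KO vehicle, 0.04, 0.21 and -0.08 in WT IIAEK and -0.67, -0.69 and -0.96 in WT vehicle mice. WT vehicle mice thus lay below both KO vehicle and WT IIAEK mice without overlap, by 0.80 ± 0.27 for KO minus WT under vehicle (unadjusted p 0.0123) and by 0.83 ± 0.27 for IIAEK minus vehicle in wild type (unadjusted p 0.0101). These comparisons share the WT vehicle mice. Cxcl10, of the same list, overlapped in both, at 0.32 ± 0.28 for KO minus WT under vehicle and -0.04 ± 0.28 for IIAEK minus vehicle in wild type. Il15, the cytokine that maintains intraepithelial lymphocytes, was at 3.25, 3.65 and 3.13 in WT IIAEK and 2.65, 2.75 and 2.69 in WT vehicle mice, without overlap and with a difference of 0.64 ± 0.28 (unadjusted p 0.0435). In knockout mice it was at 3.60, 3.12 and 2.20 under IIAEK and 2.73, 2.89 and 2.86 under vehicle, with overlap. Tnfrsf14, the herpesvirus entry mediator that CD160 binds, was at -2.24, -2.01 and -1.70 in KO vehicle and -2.41, -2.62 and -2.46 in WT vehicle mice, without overlap and with a difference of 0.51 ± 0.18 (unadjusted p 0.0169). Under IIAEK it was at -2.67, -2.38 and -2.30 in KO and -2.34, -2.27 and -2.21 in WT mice, with overlap and a difference of -0.18 ± 0.18. IIAEK minus vehicle was -0.47 ± 0.18 in knockout (unadjusted p 0.0270) and 0.23 ± 0.18 in wild-type mice, each without overlap, and these differed by -0.69 ± 0.26 (unadjusted p 0.0216). No ligand was called (limma, adjusted p at least 0.993).

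Of the marker lists of other cells, no gene was called between genotypes. Macrophage and dendritic cell genes (10 of 10 tested) had median KO minus WT differences of 0.22 under IIAEK and 0.25 under vehicle, and plasma cell genes (6 of 6 tested) of 0.09 under IIAEK and 0.45 under vehicle. B cell genes had medians of 0.02 under IIAEK and -0.99 under vehicle, the second resting on the 2 WT vehicle arrays named above. Under IIAEK the medians were -0.10 for enterocyte genes, -0.06 for smooth muscle genes, 0.11 for pancreatic genes and -0.42 for stomach and mucous gland genes. Under vehicle they were 0.06 for enterocyte genes, -0.29 for smooth muscle genes, 2.02 for pancreatic genes and -4.03 for stomach and mucous gland genes. The part of these cell types in the values of the T cell genes was not tested beyond the covariates given above.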

How the data were processed

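RNA of whole duodenum of 12 mice was hybridised to 12 one-colour Agilent arrays. Per the file headers, Feature Extraction 10.7.3.1 wrote the scanner files, which hold for each spot a background-subtracted intensity that is not scaled between arrays. The authors' deposited value table holds log2 values; they matched the values computed here after centring each probe on its median (lowest correlation on an array 0.999996), so its scale, direction and centring are known but levels cannot be read from it. Its column medians were 0.12, -0.04 and 0.08 in KO IIAEK, -0.05, -0.09 and 0.09 in KO vehicle, -0.06, 0.04 and 0.07 in WT IIAEK and -0.07, -0.08 and 0.13 in WT vehicle mice. Dosing time is 14 days in the titles and the series design, although some source labels state weeks; 14 days was taken.

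Of 62976 spots, 3671 controls were left out, as were 22 of 56605 probes with outlier spots. Spots of a probe were averaged after log2 and set relative to the 75th percentile of their array. Accessions were matched to RefSeq gene names (GRCm38.p6), which named 32978 of 56583 probes; array names and annotation follow an older build. A probe entered the tests where some group had it well above background in all 3 mice, and the brightest stood for a gene, which left 26107 features. On an array 55.9% to 64.0% of probes were well above background, the 75th percentile of intensity lay between 195 and 465, no spot was saturated, and replicates correlated at 0.953 to 0.990. The number of arrays limits the precision: the median SE was 0.243 between 2 groups, 0.172 for averages and 0.344 for the difference of effects.

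One mean per group was fitted over the 12 arrays (lmFit and eBayes with an intensity trend, limma 3.58.1, R 4.3.3), for 7 contrasts, two-sided, with Benjamini-Hochberg adjustment over 26107 features. The fit was tested on simulated data. Figures were drawn with matplotlib 3.10.9. Samples were grouped by their titles; the labels give 3 mice per group, and nothing says how cages or litters were shared. As a pairing check, deviations of same-numbered mice from their group means were correlated. They gave 0.12 to 0.54 between KO and WT vehicle and 0.16 to 0.43 between IIAEK and vehicle in wild type. Of these pairs, 2 of 3 and 3 of 3 shared a slide. Pairs of different number on 1 slide in these comparisons gave -0.15 to 0.41. Pairing by number thus cannot be told apart from a shared slide, and replicate number was used as a block in an alternative alone. In 4 other combinations at least 1 of 3 pairs was at 0.1 or below. Over all 18 same-numbered pairs the median was 0.14, against -0.13 over 36 pairs of different number. Per-array values are given for 12 genes picked by role and for the 3 members with the smallest p in each contrast. The members, the gene lists and this rule were chosen with earlier results of these data known. Further lists covered other T cell genes, gamma delta and innate lymphoid genes, epithelial ligands, B cells, plasma cells, macrophages and dendritic cells, stomach, pancreas, enterocytes and smooth muscle. Alternatives covered background correction (normexp with an offset of 50), scaling, filter, probe rule, slide, replicate number, other tissue, variance model, the authors' values and each array left out.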

Additional observations from a re-analysis of the deposited data

How the results depend on the processing

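Precision is limited by 3 mice per group, by the slide split and by other tissue on single arrays, and dim genes such as Cd160 and Trat1 rest on signals close to background. Medians of the members kept their direction for KO minus WT under background correction, scaling, filter, probe rule, the authors' values and each array left out. They moved by less than the SD between replicates of the members' array mean (0.247). The exceptions were within 1 slide. That SD is close in size to the medians (0.34 under vehicle, 0.27 under IIAEK, 0.24 for the average), so it cannot show them to be stable. With an array left out they ran from 0.17 to 0.45 under vehicle, 0.14 to 0.48 under IIAEK and 0.19 to 0.40 for the average. Within slide 2 the median KO minus WT difference was -0.13 under IIAEK, 0.052 under vehicle and -0.086 for the average, and IIAEK minus vehicle was -0.41 in knockout, -0.27 in wild-type mice and -0.33 for the average. Within slide 1 KO minus WT was 0.53 under IIAEK. Without both arrays high in B cell genes, IIAEK minus vehicle in wild type had a median of -0.26. The cause was not tested. Calls among members ran from 0 to 1 with an array left out, both for KO minus WT under vehicle and for IIAEK in wild type, the call being Cd2 without WT vehicle replicate 3, where 17 features in all were called for IIAEK in wild type. Within slide 1, 1 member, again Cd2, was called for IIAEK in wild type, along with 0.984% of all features. Cd8b1 had the opposite sign within slide 2 for KO minus WT under IIAEK (-0.13) and on average (-0.086). Cd2 had the opposite sign for IIAEK in wild type within slide 2 (0.66), without the arrays high in B cell genes (0.49) and with the B cell mean as a covariate (0.11), and in the same settings for the IIAEK average (0.40, 0.29 and 0.083) and the difference of effects (-0.51, -0.39 and -0.047). Cd96 for IIAEK in knockout ran from -0.71 to 0.033 with an array left out. The replicate block changed no call: 0 members were called, and the median KO minus WT difference was 0.27 under IIAEK, 0.34 under vehicle and 0.24 for the average.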

Other observations

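Of the 34 T cell genes, 11 had several probes. The second probe of Cd3e put KO minus WT at 0.38 under IIAEK and 0.57 under vehicle, that of Cd7 at 0.41 under IIAEK and 0.78 under vehicle, and that of Lck at 0.49 under IIAEK and 0.47 under vehicle. For Trat1 the second probe gave 0.92 under IIAEK and 0.74 under vehicle, above the values of the probe used in the report. That second probe was well above background on all 3 arrays of KO IIAEK alone. It was so on 2 KO vehicle, 2 WT vehicle and 1 WT IIAEK arrays. A higher value in KO IIAEK was thus a condition of its passing the filter, and its differences are no finding about Trat1. Probes of Il2rb (0.04 under IIAEK, -0.25 under vehicle) and Cd247 (-0.51 under IIAEK, -0.10 under vehicle) lay near or below 0. The second probe of Cd3d gave 0.40 under IIAEK and 0.22 under vehicle, that of Cxcr6 0.24 under IIAEK and 0.54 under vehicle, and that of Zap70 0.30 under IIAEK and 0.17 under vehicle. For Cd8a it gave 0.01 under IIAEK and 0.18 under vehicle. The second probe of Cd4, at 0.06 under IIAEK and 0.12 under vehicle, was above background on 3 arrays and missed the detection filter, and another probe of Cd247 was above background on none. These probes were given no separate test.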
